A study of Mus musculus with 45 samples.

Results

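The genes described here are those whose mean level was lower in Pkd1KO tubules than in both other genotypes of the study, in male and in female mice alike. They were selected on the readout itself: a gene had to reach a mean of 2 TPM (a transcript level scaled to transcript length and library size) in noncystic mice of both sexes, and the log2 ratio of the Pkd1KO mean to each other genotype's mean, with 0.1 TPM added to both, had to be -0.3 or lower in all 4 comparisons. Of 15828 protein-coding genes in both TPM tables, 115 met the rule (0.727% of them), and 11458 had passed the 2 TPM floor. Because group means chose the members, their levels in Pkd1KO mice against the other genotypes are a description and carry no test. Comparisons that the choice did not use are tested: Pkd1KO+ciliaKO against noncystic mice, and noncystic males against noncystic females. Noncystic and Pkd1KO+ciliaKO mice were also sides of the choice, and noncystic means set its floor, so both tests share mice with it.

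Kidney tubule mRNA was taken from 45 mice at 7 weeks of age (postnatal day 49) by translating ribosome affinity purification (TRAP), in which a tagged ribosomal protein is pulled down with the mRNA on its ribosomes, and was sequenced. Noncystic mice were *Pkd1* fl/+ (8 males, 7 females), Pkd1KO mice were *Pkd1* fl/fl (7 males, 8 females) and Pkd1KO+ciliaKO mice were *Pkd1* fl/fl and *Kif3a* fl/fl (9 males, 6 females). Every mouse, controls included, carried R26 Rpl10a, Pax8 rtTA and TetO Cre and was given doxycycline from postnatal day 28 to day 42. Pax8 rtTA limits Cre and the tagged ribosome to nephron epithelium, so other kidney cells should enter only as carryover, and the noncystic mice had also lost a copy of *Pkd1* in those cells.

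Polycystin-1, the product of *Pkd1*, is a ciliary membrane protein of tubule cells, and its loss after tubules have formed leads to cysts. *Kif3a* is a motor subunit needed to build and keep cilia, and cysts grow far less when cilia are removed together with polycystin-1. Activity of this kind, which needs the cilium and is held down by polycystin-1, is called cilia-dependent cyst activation. A transcript that is low in Pkd1KO tubules and back near the noncystic level in Pkd1KO+ciliaKO tubules has the pattern of a target that such activity lowers.

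Libraries held 80874556 to 132958186 counts. *Kif3a*, the gene deleted in Pkd1KO+ciliaKO mice, had medians of 18.0, 19.0 and 4.86 TPM in noncystic, Pkd1KO and Pkd1KO+ciliaKO males. In females the 3 medians were 21.9, 24.2 and 7.84 TPM, but the library labelled noncystic female replicate 5 held 6.2 TPM against 20.8 to 22.7 in the rest of its group, and the library labelled Pkd1KO+ciliaKO female replicate 6 held 20.1 against 6.1 to 9.02. Both go against their labels. Without them 116 genes met the rule, of which 105 were among the 115, and the members lost were *Myo5c*, *Ubxn10*, *Tmem28*, *Eme2*, *Myh14*, *Lrrc66*, *Gm10639*, *Arid3a*, *Lrch3* and *Rap1gap*. *Pkd1* had medians of 8.16, 6.02 and 7.07 TPM in males and 9.49, 7.67 and 11.3 in females, but counts over the whole gene do not isolate the deleted exons and check no label. In males, 4 libraries (noncystic replicate 3, Pkd1KO replicate 4 and Pkd1KO+ciliaKO replicates 6 and 8) stood apart on the first principal component. This component held 42.3% of the variance and separated the sexes apart from these libraries. Their scores were -9.8, -1.1, -23.7 and -30.2, against 14.4 to 40.3 in the other males and -38.4 to -12.9 in females. So they lay toward or within the female range, and no cause was tested. *Glis2*, a zinc finger factor that the study used as a readout of cilia-dependent cyst activation, moved the opposite way to the 115 genes, with medians of 122, 292 and 181 TPM in the 3 male groups and 154, 337 and 182 in the female groups.

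Over all 11458 genes past the floor, the median log2 ratio of Pkd1KO to noncystic mean TPM was -0.06 in males and 0.02 in females, and to Pkd1KO+ciliaKO it was -0.12 and -0.09. For the 115 members the medians were -0.66 and -0.50 against noncystic mice and -0.66 and -0.64 against Pkd1KO+ciliaKO mice. With each ratio taken relative to the median of all genes, 88 genes met the rule and 80 of them were among the 115. The requirement in both sexes removed most genes: 444 met the rule in males, of which 25.9% also met it in females, and 229 met it in females, of which 50.2% also met it in males. Just inside the threshold lay *Rap1gap*, *Tmem52* and *Slc44a2*, with -0.30 as their least negative log2 ratio, and just outside lay *Slc2a4*, *Tent5b* and *Cplx2* with -0.30, -0.30 and -0.29.

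**Figure D1:**
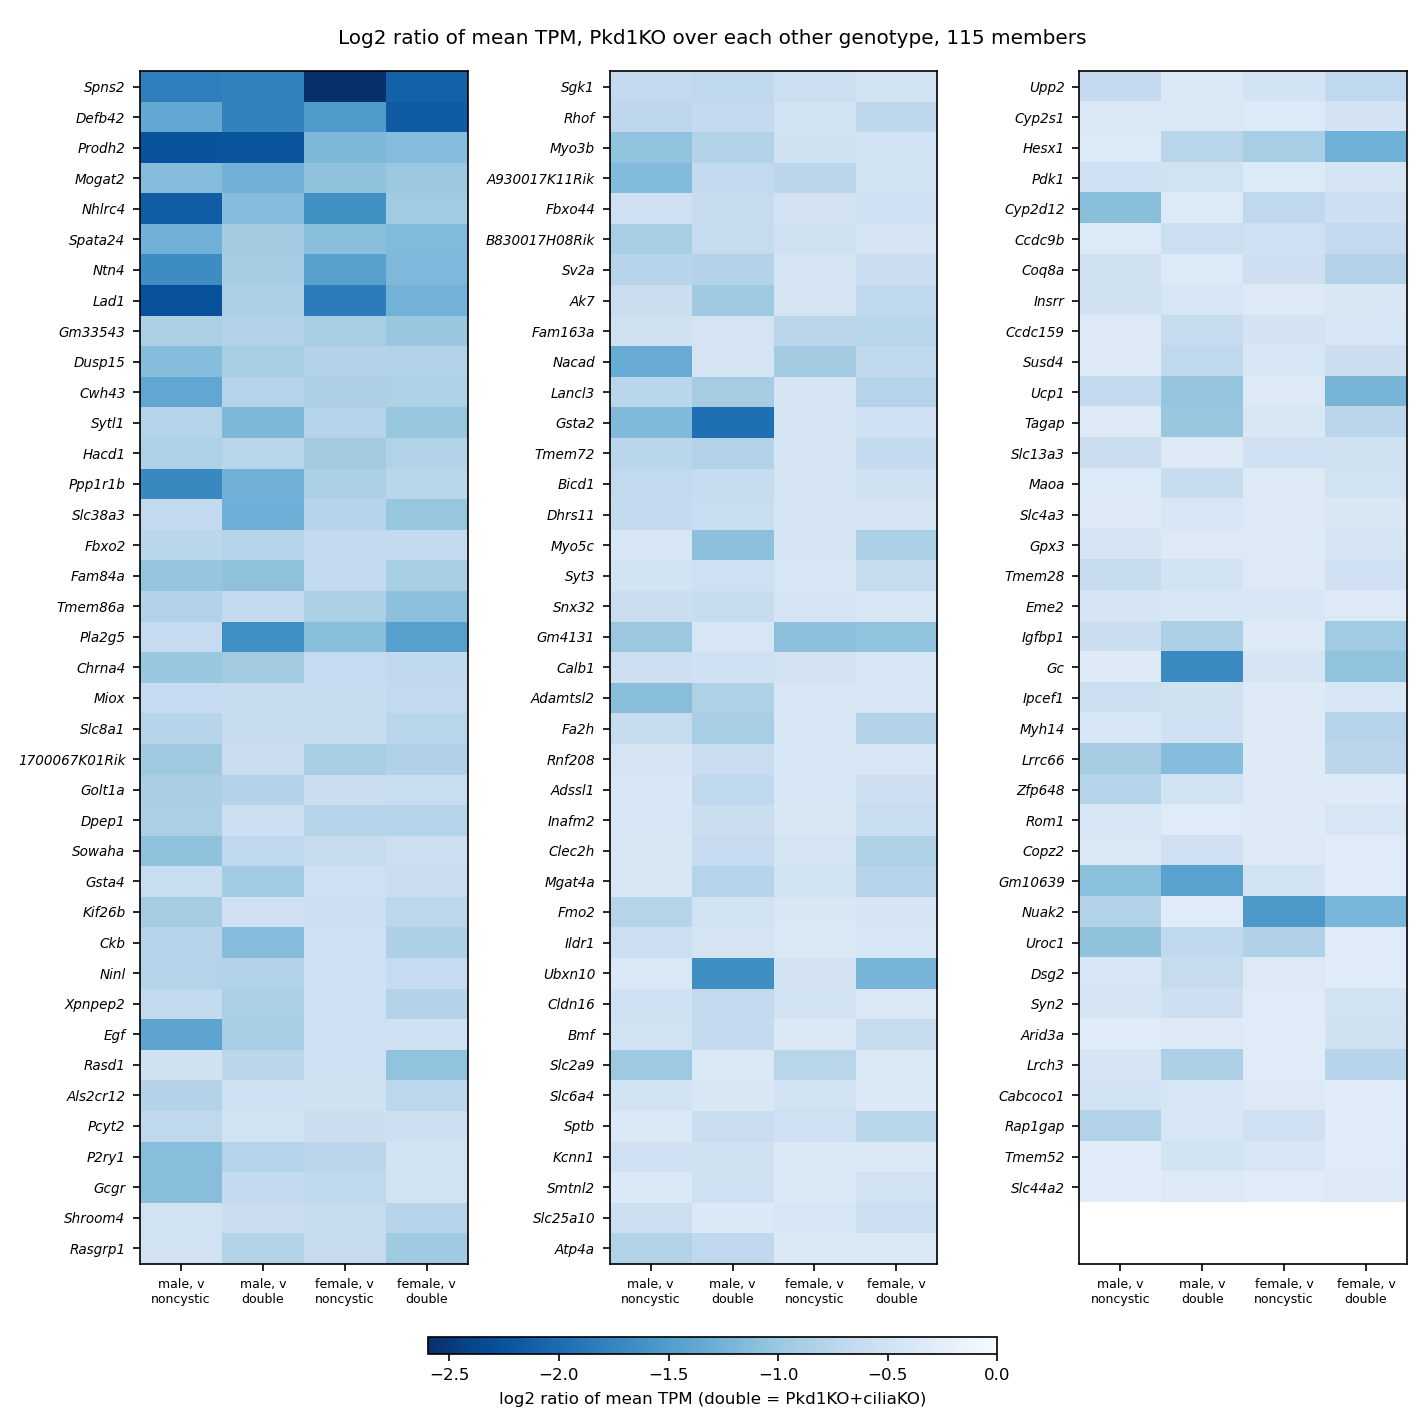
Log2 ratio of mean TPM (with 0.1 TPM added) in Pkd1KO mice to noncystic and to Pkd1KO+ciliaKO mice, by sex, for the 115 genes ordered by the least negative of their 4 ratios. *Spns2* stands at the top with no ratio above -1.77, and the members' medians in the 4 columns are -0.66 to -0.50.

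*Spns2*, the exporter of sphingosine 1-phosphate (ENSMUSG00000040447.15, chromosome 11, 72451638 to 72489904, minus strand, GRCm38), had the most negative least ratio. It ranged from 35.8 to 54.3 TPM in noncystic males (median 42.8), from 7.59 to 22.5 TPM in Pkd1KO males (median 9.56) and from 33.4 to 59.1 TPM in Pkd1KO+ciliaKO males (median 41.3). In females it ranged from 78.1 to 103 TPM in noncystic females (median 85.8), from 8.99 to 20.4 TPM in Pkd1KO females (median 14.3) and from 36.7 to 83.5 TPM in Pkd1KO+ciliaKO females (median 66.1). In both sexes every Pkd1KO mouse lay below every mouse of the other genotypes, and the log2 ratios against noncystic and Pkd1KO+ciliaKO mice were -1.80 and -1.77 in males and -2.60 and -2.11 in females. *Ntn4* (ENSMUSG00000020019.4, chromosome 10, 93640681 to 93747207, plus strand), a netrin of basement membranes, ranged from 40.1 to 77.1 TPM in noncystic males (median 53.0), from 12.4 to 30.1 TPM in Pkd1KO males (median 14.4) and from 28.6 to 35.8 TPM in Pkd1KO+ciliaKO males (median 32.4). Pkd1KO males lay below every noncystic male but overlapped with the Pkd1KO+ciliaKO males, since replicate 4, at 30.1 TPM, stood above the other Pkd1KO males. *Lad1* (ENSMUSG00000041782.14, chromosome 1, 135818598 to 135833342, plus strand), which encodes ladinin, an anchoring filament protein of basement membranes, ranged from 132 to 265 TPM in noncystic males (median 164), from 26.4 to 62.6 TPM in Pkd1KO males (median 34.8) and from 55.1 to 86.3 TPM in Pkd1KO+ciliaKO males (median 60.8). Pkd1KO and Pkd1KO+ciliaKO males overlapped here too, and every Pkd1KO+ciliaKO male lay below every noncystic male for both genes. In females, *Ntn4* and *Lad1* were lower in every Pkd1KO mouse (at most 23.7 and 75.1 TPM) than in any mouse of the other genotypes (at least 31.4 and 107 TPM).

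Beyond these genes, *Prodh2*, *Hacd1*, *Pcyt2* and *Spata24* were the members other than *Spns2* whose Pkd1KO mice lay below every noncystic and every Pkd1KO+ciliaKO mouse in both sexes. Those 5 were all the genes of the table that did so (0.0316% of genes). With those 5 included, separation within males held for 18 members against 0.256% of genes. Within females it held for 21 against 0.169%, or 23 without the 2 libraries whose *Kif3a* goes against their labels. These counts use the values that chose the members, and nothing is read from them.

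*Prodh2* (ENSMUSG00000036892.12, chromosome 7, 30493622 to 30513402, plus strand) encodes hydroxyproline dehydrogenase, a mitochondrial enzyme of liver and proximal tubule that starts the breakdown of hydroxyproline toward glyoxylate. In males it ranged from 19.0 to 27.8 TPM in noncystic males (median 21.9), from 1.91 to 7.74 TPM in Pkd1KO males (median 4.41) and from 14.2 to 40.9 TPM in Pkd1KO+ciliaKO males (median 17.4). Females started from a higher level and ranged from 41.3 to 69.7 TPM in noncystic females (median 55.7), from 17.4 to 39.5 TPM in Pkd1KO females (median 22.6) and from 41.0 to 65.5 TPM in Pkd1KO+ciliaKO females (median 52.3). Pkd1KO mice of each sex lay below every other mouse of that sex, while noncystic and Pkd1KO+ciliaKO mice overlapped, and the log2 ratios were -2.25 and -2.22 in males and -1.18 and -1.12 in females. *Hacd1*, a dehydratase of very long chain fatty acid elongation, ranged from 9.32 to 12.8 TPM in noncystic males (median 12.4), from 5.17 to 8.26 TPM in Pkd1KO males (median 6.22) and from 8.32 to 14 TPM in Pkd1KO+ciliaKO males (median 11.3). In females the highest Pkd1KO value of *Hacd1*, 9.54 TPM, lay below the lowest of the other genotypes, 12.2 TPM. *Pcyt2*, which makes CDP-ethanolamine for phosphatidylethanolamine synthesis, ranged from 67.0 to 88.7 TPM in noncystic males (median 80.7), from 41.8 to 55.5 TPM in Pkd1KO males (median 46.8) and from 61.7 to 77.5 TPM in Pkd1KO+ciliaKO males (median 68.6). Its female Pkd1KO mice reached at most 52.2 TPM, while no mouse of the other female groups was below 59.0 TPM. *Spata24*, first described in testis, was low throughout, with medians of 4.86, 2.0 and 3.76 TPM in males and 3.26, 1.32 and 3.49 TPM in females.

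**Figure D2:**
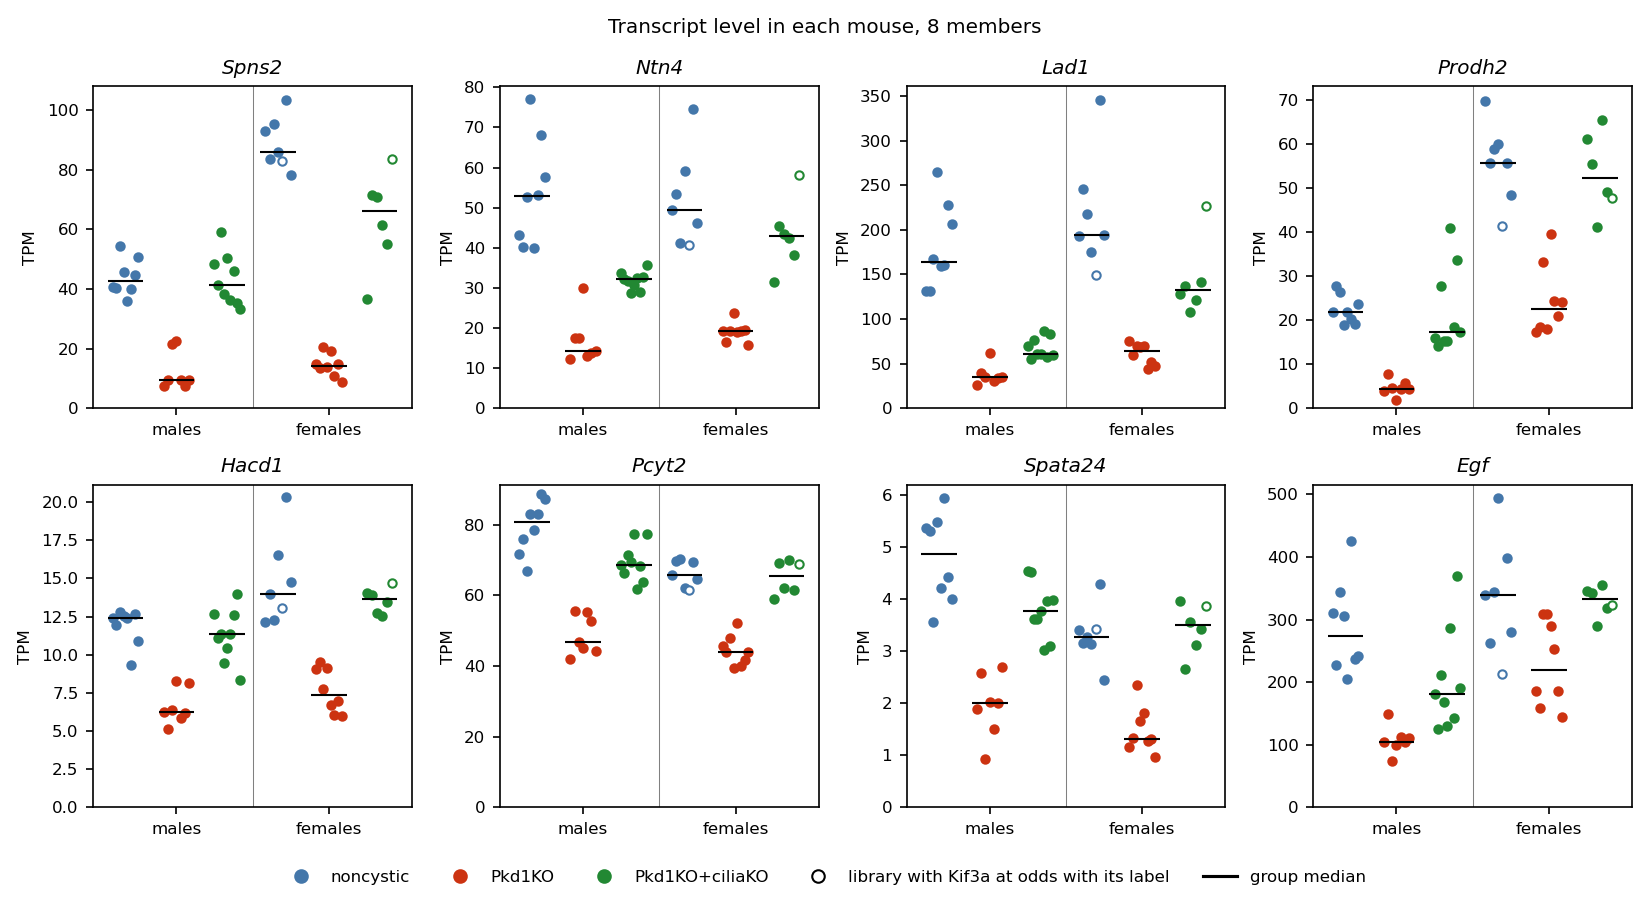
TPM of 8 of the genes in each of the 45 mice, by genotype and sex, on a linear axis for each gene; points are mice, bars are group medians and open points are the 2 libraries whose *Kif3a* level goes against their labels. For *Spns2*, *Prodh2*, *Hacd1*, *Pcyt2* and *Spata24* no Pkd1KO point reaches a point of another genotype of the same sex, while for *Egf* the female groups overlap.

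Members at lower levels also had their lowest mean in Pkd1KO mice, which the rule required, and most showed some overlap. The order of the other 2 genotypes differed between genes. *Mogat2*, a monoacylglycerol acyltransferase of triglyceride synthesis, ranged from 14.1 to 20.7 TPM in noncystic males (median 19.1), from 4.07 to 11 TPM in Pkd1KO males (median 8.18) and from 16.0 to 24.4 TPM in Pkd1KO+ciliaKO males (median 19.3), with no overlap in males. In females the lowest Pkd1KO+ciliaKO mouse (9.45 TPM) fell within the Pkd1KO range, which ended at 9.77 TPM. *Nhlrc4*, a gene without a named role here, ranged from 3.57 to 7.0 TPM in noncystic males (median 4.22), from 0.661 to 1.23 TPM in Pkd1KO males (median 0.968) and from 1.48 to 3.85 TPM in Pkd1KO+ciliaKO males (median 1.87). Its male groups did not overlap between Pkd1KO and the other genotypes, but the Pkd1KO+ciliaKO median stayed well below the noncystic one. *Defb42*, a beta-defensin gene, ranged from 1.02 to 3.84 TPM in noncystic males (median 2.28), from 0.541 to 1.78 TPM in Pkd1KO males (median 0.65) and from 2.07 to 6.45 TPM in Pkd1KO+ciliaKO males (median 2.41), and the lowest noncystic male lay within the Pkd1KO range. *Dusp15*, a dual-specificity phosphatase, had female medians of 6.14, 3.38 and 6.18 TPM with no overlap, and male medians of 4.65, 2.38 and 3.4 TPM with overlap against noncystic males. *Sytl1*, a synaptotagmin-like protein of vesicle docking, was separated from Pkd1KO+ciliaKO mice in both sexes but overlapped with noncystic mice, with male medians of 3.86, 2.05 and 4.35 TPM. *Cwh43*, which remodels the lipid of GPI anchors, had male medians of 11.5, 4.12 and 6.64 TPM and female medians of 11.8, 7.16 and 13.4 TPM. *Gm33543*, with no role named here, had male medians of 6.05, 3.34 and 5.22 TPM and overlapped in both sexes.

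The calls of edgeR's quasi-likelihood test on the counts (Benjamini-Hochberg adjusted p at most 0.05 over all protein-coding genes tested) are descriptive. A call depends on the size of the fall, the counts and the group size as well as on the spread across mice. Against noncystic mice, 68 members were called lower in Pkd1KO males (2.25% of all genes tested) and 81 in Pkd1KO females (1.32%). Against Pkd1KO+ciliaKO mice, 48 were called lower in Pkd1KO males (1.78%) and 71 in Pkd1KO females (4.65%). Without the 2 libraries whose *Kif3a* goes against their labels, the female counts were 78 (1.37%) and 64 (4.05%). All 4 fits called 30 members lower, against 0.24% of genes, and 15 members were called in none. The same contrasts chose the members, so these shares are not a result about them. Group means and medians mostly gave 1 order, but in males the Pkd1KO median of *Tagap* and *Ucp1* was not below the noncystic median, and that of *Cyp2d12* and *Ucp1* was not below the Pkd1KO+ciliaKO median.

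Promoter sequence, credited to RefSeq (GRCm38.p6, 250 bases before to 50 bases after the start), was matched by symbol for 95 of the 115 members. The windows of 4 members are printed, 2 of them proximal tubule enzymes and 2 basement membrane genes. They were picked by name with the members known, so the contrast between them is no result about the members. Letters are lower case 5′ to 3′ along the gene's strand, and capitals mark matches on either strand to the motifs listed after them.
*Prodh2*, chr7:30493408-30493707, plus strand: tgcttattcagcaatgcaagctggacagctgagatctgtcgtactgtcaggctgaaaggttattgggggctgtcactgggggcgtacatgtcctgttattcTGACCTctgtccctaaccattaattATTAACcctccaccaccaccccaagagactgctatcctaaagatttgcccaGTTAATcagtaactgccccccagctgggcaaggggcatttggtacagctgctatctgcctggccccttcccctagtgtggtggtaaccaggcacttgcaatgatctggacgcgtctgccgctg
*Miox*, chr15:89334223-89334522, plus strand: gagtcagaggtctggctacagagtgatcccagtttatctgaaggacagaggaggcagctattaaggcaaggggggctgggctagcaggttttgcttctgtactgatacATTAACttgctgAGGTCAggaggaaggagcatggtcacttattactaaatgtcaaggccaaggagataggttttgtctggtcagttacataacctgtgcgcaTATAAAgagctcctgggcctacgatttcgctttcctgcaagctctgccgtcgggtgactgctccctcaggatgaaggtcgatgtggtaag
*Ntn4*, chr10:93640799-93641098, plus strand: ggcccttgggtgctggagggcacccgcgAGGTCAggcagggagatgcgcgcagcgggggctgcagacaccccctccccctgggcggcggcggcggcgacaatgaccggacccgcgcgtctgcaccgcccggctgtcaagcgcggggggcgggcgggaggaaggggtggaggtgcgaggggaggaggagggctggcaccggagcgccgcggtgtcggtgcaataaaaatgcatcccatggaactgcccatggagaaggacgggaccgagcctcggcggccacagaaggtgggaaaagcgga
*Lad1*, chr1:135818348-135818647, plus strand: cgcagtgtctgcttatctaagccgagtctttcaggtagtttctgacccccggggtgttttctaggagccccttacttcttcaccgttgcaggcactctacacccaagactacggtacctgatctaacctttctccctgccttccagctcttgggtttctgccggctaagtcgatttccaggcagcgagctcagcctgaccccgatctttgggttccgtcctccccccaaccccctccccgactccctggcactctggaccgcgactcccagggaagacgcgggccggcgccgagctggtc
The capitals in *Prodh2* are 2 short HNF1 sites (GTTAAT) and a nuclear receptor core site (AGGTCA). In *Miox* they are the same kinds of site, together with a TATA box (TATAAA). *Ntn4* has a nuclear receptor core site, and *Lad1* holds no match to any of the 10 motifs searched. The *Ntn4* window is built on a start 368 bases inside the gene as placed above. All of it lies within the gene's span and none before it. HNF1 factors and nuclear receptors are known regulators of proximal tubule genes, but a match is only a run of letters.

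Over the 95 windows, GTTAAT was in 8 (8.42%, against 5.75% of 9078 promoters of genes past the floor) and AGGTCA in 20 (21.1% against 15.3%). The Glis motif TGGGGGGT was in 4 (4.21% against 1.72%), those of *Fbxo44*, *Sgk1*, *Susd4* and *Sv2a*, and the Gli motif GACCACCCA was in none (0.264% of promoters of genes past the floor). The TEAD motif ACATTCC was in 9 (9.47% against 3.53%), TATAAA in 10 (10.5% against 8.63%) and the AP-1 motif TGAGTCA in 5 (5.26% against 4.41%). The E-box CACGTG was in 5 (5.26% against 12%), the ETS motif CCGGAAGT in 2 (2.11% against 9.39%) and the CRE TGACGTCA in none (3.46%). Each motif was searched on both strands, no test was made of these shares, and an absent match says only that the letters are not in the window.

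By known function the 115 genes were spread over many processes (a grouping made after the members were known). Genes of matrix, adhesion and junctions numbered 6. Besides *Ntn4* and *Lad1* they were *Cldn16*, the claudin of magnesium and calcium reabsorption in the thick ascending limb, *Dsg2*, a desmosomal cadherin, *Ildr1*, a protein of tricellular junctions, and *Adamtsl2*, a secreted glycoprotein of microfibrils. *Cldn16* overlapped between all groups, with male medians of 20.4, 11.6 and 19.3 TPM, and its Pkd1KO replicate 4, at 25.5 TPM, lay above every noncystic male.

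Transporters and channels numbered 13. With *Spns2* they were *Slc38a3* (glutamine), *Slc13a3* (dicarboxylates), *Slc2a9* (urate), *Slc8a1* (sodium and calcium exchange), *Slc6a4* (serotonin), *Slc25a10* (mitochondrial dicarboxylates), *Slc4a3* (anion exchange), *Slc44a2* (a choline transporter-like protein), the nicotinic receptor subunit *Chrna4*, the potassium channel *Kcnn1*, the proton pump subunit *Atp4a* and the mitochondrial uncoupler *Ucp1*. *Slc38a3* ranged from 15.5 to 28.6 TPM in noncystic males (median 19.9), from 8.03 to 19.0 TPM in Pkd1KO males (median 13.3) and from 26.6 to 40.1 TPM in Pkd1KO+ciliaKO males (median 30.8). Every Pkd1KO male lay below every Pkd1KO+ciliaKO male, but noncystic and Pkd1KO males overlapped.

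Enzymes of lipid metabolism numbered 6: *Mogat2*, *Hacd1* and *Pcyt2*, the lysoplasmalogenase *Tmem86a*, the secreted phospholipase *Pla2g5* and the fatty acid hydroxylase *Fa2h*. Enzymes of glutathione, peroxide and foreign compounds numbered 8, namely the glutathione transferases *Gsta2* and *Gsta4*, the extracellular glutathione peroxidase *Gpx3*, monoamine oxidase A (*Maoa*), the cytochromes *Cyp2s1* and *Cyp2d12*, *Fmo2* and *Dhrs11*. *Gpx3* was the most abundant member, from 19000 to 28800 TPM in noncystic males (median 25600), from 13000 to 21500 TPM in Pkd1KO males (median 19700) and from 18500 to 33500 TPM in Pkd1KO+ciliaKO males (median 23100), with overlap in males. *Gsta2* ranged from 143 to 407 TPM in noncystic males (median 275), from 65.5 to 244 TPM in Pkd1KO males (median 96.0) and from 255 to 975 TPM in Pkd1KO+ciliaKO males (median 299). Its noncystic females, at 1100 to 1520 TPM, lay far above the noncystic males. The other 12 enzymes were *Prodh2*, the inositol oxygenase *Miox*, the brush border peptidases *Dpep1* and *Xpnpep2*, brain-type creatine kinase *Ckb*, the adenylate kinase *Ak7*, the purine enzyme *Adssl1*, the glycan transferase *Mgat4a*, uridine phosphorylase *Upp2*, the pyruvate dehydrogenase kinase *Pdk1*, *Coq8a* of coenzyme Q synthesis and urocanate hydratase *Uroc1*. *Miox* ranged from 1900 to 2380 TPM in noncystic males (median 2330), from 1190 to 1580 TPM in Pkd1KO males (median 1440) and from 1940 to 2700 TPM in Pkd1KO+ciliaKO males (median 2060), and every Pkd1KO male lay below every other male. In females the groups of *Miox* overlapped, with medians of 2810, 1790 and 3100 TPM.

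Signalling genes numbered 16. They held the growth factor *Egf*, the glucagon receptor *Gcgr*, the ADP receptor *P2ry1*, the insulin receptor-related receptor *Insrr*, the aldosterone-induced kinase *Sgk1*, the AMPK-related kinase *Nuak2*, the phosphatase inhibitor *Ppp1r1b* (DARPP-32), *Dusp15*, the calcium-binding protein *Calb1*, the small G protein *Rasd1* and the regulators of such proteins *Rasgrp1*, *Rap1gap*, *Tagap* and *Ipcef1*, as well as *Bmf*, a cell death protein, and *Igfbp1*, which binds insulin-like growth factors. *Ppp1r1b* ranged from 65.6 to 124 TPM in noncystic males (median 77.5), from 16.8 to 31.9 TPM in Pkd1KO males (median 24.9) and from 40.1 to 130 TPM in Pkd1KO+ciliaKO males (median 45.5). No male overlapped between Pkd1KO and the other genotypes, whereas the female groups overlapped, with medians of 86.8, 46.3 and 89.6 TPM. Genes of vesicles and membrane traffic numbered 9 (*Cwh43*, *Sytl1*, *Golt1a*, *Sv2a*, *Syt3*, *Snx32*, *Rom1*, *Copz2* and *Syn2*). *Sv2a*, *Syt3* and *Syn2* are best known from synaptic vesicles.

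Cytoskeletal genes and motors numbered 10: the myosins *Myo3b*, *Myo5c* and *Myh14*, the kinesin *Kif26b*, the dynein adaptors *Bicd1* and *Ninl*, the actin-binding *Shroom4* and *Smtnl2*, the filopodial G protein *Rhof* and the spectrin *Sptb*. *Bicd1* had male medians of 3.73, 2.57 and 3.59 TPM and did not overlap between Pkd1KO and the other male groups. Genes of ubiquitin, chaperones and the nucleus numbered 8 (*Fbxo2*, *Fbxo44*, *Rnf208*, *Ubxn10*, *Hesx1*, *Eme2*, *Zfp648* and *Arid3a*). Genes of secreted and complement proteins numbered 3 (*Defb42*, the complement regulator *Susd4* and *Gc*, the vitamin D-binding protein). No role is given for 24: *Nhlrc4*, *Spata24*, *Gm33543*, *Fam84a*, *1700067K01Rik*, *Sowaha*, *Als2cr12*, *A930017K11Rik*, *B830017H08Rik*, *Fam163a*, *Nacad*, *Lancl3*, *Tmem72*, *Gm4131*, *Inafm2*, *Clec2h*, *Ccdc9b*, *Ccdc159*, *Tmem28*, *Lrrc66*, *Gm10639*, *Lrch3*, *Cabcoco1* and *Tmem52*.

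By segment, 10 members stood in lists of nephron markers, which were written with earlier results of these data known. Of all genes past the floor, 1.0% were members. Members outside the lists are not counted by segment, among them *Prodh2*, named above as a proximal tubule enzyme, and the brush border peptidases *Dpep1* and *Xpnpep2*. The counts thus depend on the lists and do not rank the segments. The thick ascending limb, which reabsorbs salt without water, gave 5 of its 14 listed genes: *Egf*, *Cldn16*, *Ppp1r1b*, *Ckb* and *Tmem72*. Proximal tubule gave *Slc13a3* and *Miox* of 18, the distal convoluted tubule *Calb1* and *Slc8a1* of 10, intercalated cells *Insrr* of 10, and the thin limb and the connecting tubule with principal cells none of 7 and 12 measured. Without the 4 male libraries that stood apart, *Calb1*, *Slc8a1* and *Insrr* no longer met the rule, and the distal convoluted tubule and intercalated cells then had no member of the 115 on their lists. In bulk samples, fewer cells of a type and less RNA per cell cannot be told apart.

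*Egf*, which the thick ascending limb and distal tubule make in large amounts, ranged from 205 to 425 TPM in noncystic males (median 274), from 74.4 to 150 TPM in Pkd1KO males (median 104) and from 125 to 370 TPM in Pkd1KO+ciliaKO males (median 181). Pkd1KO males lay below every noncystic male and overlapped with Pkd1KO+ciliaKO males. In females, *Egf* overlapped between all groups, with medians of 340, 219 and 333 TPM. *Ckb* ranged from 64.2 to 160 TPM in noncystic males (median 89.2), from 31.5 to 68.8 TPM in Pkd1KO males (median 54.7) and from 90.7 to 191 TPM in Pkd1KO+ciliaKO males (median 109), and the highest Pkd1KO male (68.8 TPM) lay above the lowest noncystic male (64.2 TPM). *Tmem72*, a membrane protein of unknown function, did not overlap in females, with medians of 26.4, 20.2 and 32.7 TPM.

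Of the 9 listed genes of the thick ascending limb that were no members, 3 were called lower in Pkd1KO than in noncystic males (*Slc12a1*, *Tmem207* and *Ppp1r1a*, with a median log2 fold change of -0.29 over the 9) and none in females (median -0.10). Against Pkd1KO+ciliaKO mice, 4 were lower in males (*Slc12a1*, *Tmem207*, *Cldn19* and *Kcnj1*, median -0.41) and 3 in females (*Slc12a1*, *Tmem207* and *Ptger3*, median -0.19). With the 5 members, 7 of 14 were lower in each male comparison, a count that the choice of members raises. *Slc12a1*, the sodium, potassium and chloride cotransporter, was no member: its log2 fold changes were -0.72 and -0.73 in males, -0.26 (not called) and -0.53 in females. *Tmem207* had -1.21 and -1.01 in males, -0.31 (not called) and -0.62 in females. *Umod*, the most abundant product of this segment, was called in none of the 4 fits, with -0.43, -0.41, -0.10 and -0.31. The summed level of the list was 3440 to 6420 TPM in noncystic males (median 4600), 2770 to 3800 in Pkd1KO males (median 3330) and 3500 to 7140 in Pkd1KO+ciliaKO males (median 4870). In females the medians were 5990, 5650 and 7150 TPM. The part of segment makeup in the members' falls was not tested.

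**Figure D3:**
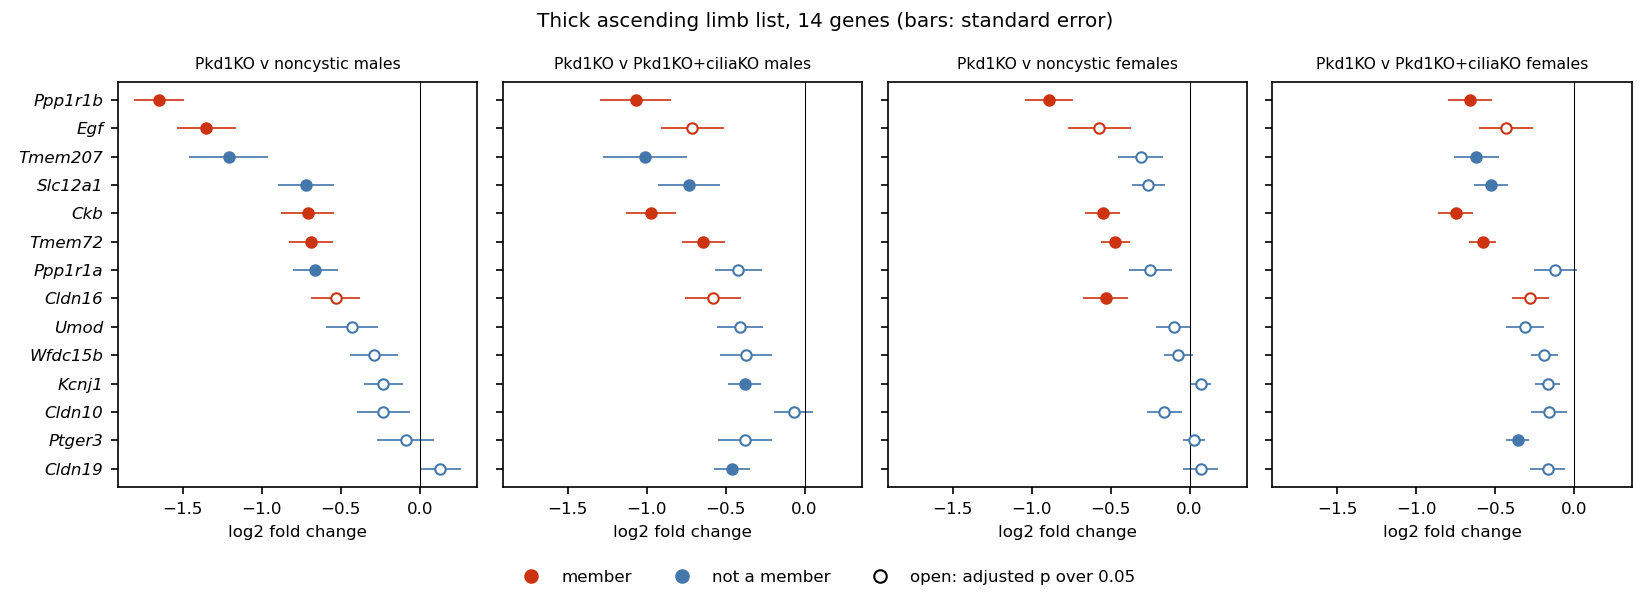
Log2 fold change (edgeR, bars are standard errors) of the 14 listed genes of the thick ascending limb in Pkd1KO mice against noncystic and Pkd1KO+ciliaKO mice, by sex; red marks the 5 members and open points an adjusted p over 0.05. Of the 9 genes that are no members, 3 are called lower than in noncystic males and none than in noncystic females.

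Of 18 listed proximal tubule genes, 4 were called lower in Pkd1KO than in noncystic males (*Miox*, *Gatm*, *Pck1* and *Cubn*) and 2 in females (*Miox* and *Slc13a3*). The list's median was -0.27 in males and -0.04 in females. *Slc13a3* overlapped with noncystic males and not with noncystic females, with female medians of 248, 167 and 261 TPM. For the distal convoluted tubule, *Calb1* and *Slc8a1* overlapped between all groups, with *Calb1* medians of 526, 350 and 506 TPM in males and 858, 593 and 777 in females. Without the 4 male libraries that stood apart, the male log2 fold changes against noncystic mice were -0.18 for *Calb1* and -0.28 for *Slc8a1*, neither called. *Insrr* overlapped between all groups too, with medians of 19.2, 13.5 and 18.0 TPM in males.

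The neighbours of the leading members in their pathways, taken from lists written with earlier results of these data known, mostly did not move with them. In the list for sphingosine 1-phosphate export and signalling, *Spns2* was the only 1 of 15 measured genes lower in Pkd1KO than in noncystic mice of either sex. The phosphatase *Sgpp2* was higher in both (log2 fold change 0.42 and 0.51), as was the lyase *Sgpl1* (0.30 and 0.28). Of 21 netrins, laminins and their receptors, only *Ntn4* was lower than in noncystic mice in either sex, and of 9 hemidesmosome and basement membrane anchors only *Lad1*. *Itgb4*, the integrin subunit of hemidesmosomes, was called higher in females (0.48) and not called in males (0.57).

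Among 13 genes of very long chain fatty acid elongation, *Hacd1* was the only 1 lower than in noncystic mice, and its relative *Hacd4* was higher in both sexes (0.66 and 0.45). In the CDP-ethanolamine and CDP-choline list of 11, *Pcyt2* was lower in both sexes and the ethanolamine kinase *Etnk2* in males (-0.59). Of 7 genes of inositol metabolism, *Miox* was lower in all 4 fits, whereas *Impa1*, an inositol monophosphatase, was higher in all 4 (0.63, 0.31, 0.52 and 0.27). Against Pkd1KO+ciliaKO females, 3 of the 7 were called lower and 1 higher (median log2 fold change -0.32). The 24 glutathione transferases gave 3 lower in each sex against noncystic mice: *Gsta2*, *Gsta4* and *Gsto2* in males, and *Gsta2*, *Gsta4* and *Gstm4* in females. *Gsta2* and *Gsta4* belong to a family of close copies, which can share reads.

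Of 13 dynein adaptors, *Bicd1* and *Ninl* were lower in all 4 fits, and *Bicdl2* and *Hook1* in males against noncystic mice alone. *Copz2* was called lower in 3 of 4 fits of the coatomer list, and *Copg2*, no member since its TPM ratios missed the threshold, in all 4 (-0.42, -0.34, -0.31 and -0.32). *Pde8a*, a phosphodiesterase that degrades cyclic AMP and likewise no member, was also lower in all 4 (-0.44, -0.36, -0.26 and -0.26), the only 1 of 18 phosphodiesterases to be so. *Pdk1* was called in 2 of 4 fits, while *Pdha1*, a subunit of the enzyme it inhibits, was lower against noncystic mice in both sexes (-0.39 and -0.24). In that list, 4 of 12 genes were called lower in Pkd1KO than in noncystic males (median -0.25) and 1 in females (median -0.05). Of 5 measured genes of creatine metabolism, *Ckb* was lower in all 4 fits and *Gatm* in the male ones (-0.51 and -0.63).

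With cilia also lost, members stood at differing shares of the noncystic level. The rule required each Pkd1KO+ciliaKO mean to lie above the Pkd1KO mean, so a rise from the Pkd1KO level was fixed by the choice. The shares below use the same means and describe only its extent. As a share of the noncystic mean, the Pkd1KO mean of the members was 20.7 to 81.0% in males (median 63.2%) and 16.4 to 80.9% in females (median 70.6%). The Pkd1KO+ciliaKO mean was 37.5 to 259.2% in males (median 98.4%) and 61.5 to 184.6% in females (median 103.9%). It lay between 75 and 125% of the noncystic mean for 83 members in males and 94 in females. Without the 2 libraries whose *Kif3a* goes against their labels, the female Pkd1KO+ciliaKO median was 101.5%, 87 members lay in that band, and the lowest was *Nhlrc4* at 50.9%. With all libraries, *Lad1* and *Nhlrc4* were below 75% in both sexes. Without those 2 libraries, *Ntn4*, *Nacad* and *Slc2a9* were also below 75% in females, and in males they stood at 59.0%, 52.9% and 65.7%. With all libraries, *Defb42*, *Gc*, *Hesx1*, *Lrch3*, *Myo5c*, *Pla2g5*, *Rasgrp1*, *Tagap*, *Ubxn10* and *Ucp1* were above 125% in both sexes. Of those 10, only *Ubxn10* stayed above 125% in both sexes when any 1 mouse was left out (at least 230.1% in males and 155% in females). *Gc* was 170.8% in males without Pkd1KO+ciliaKO replicate 6 and 109.9% in females without Pkd1KO+ciliaKO replicate 1, and *Ucp1* was 73.5% in males without Pkd1KO+ciliaKO replicate 8. *Lad1* and *Nhlrc4* stayed below 75% in both sexes without any 1 mouse. That some members, such as *Lad1* and *Nhlrc4*, change in Pkd1KO+ciliaKO tubules too rests on the direct comparison below, not on these shares.

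The direct comparison of Pkd1KO+ciliaKO with noncystic mice, which the rule did not use, called 15 members lower in males (13.0% of them, against 3.26% of all genes) and 3 higher (2.61% against 5.63%). *Lad1* was lower by a log2 fold change of -1.52 (SE 0.133, adjusted p = 6.69e-07 by edgeR) and was lower in every Pkd1KO+ciliaKO male than in any noncystic male. *Slc2a9*, from 9.76 to 15.1 TPM in noncystic males (median 11.9), from 4.12 to 6.98 TPM in Pkd1KO males (median 6.19) and from 7.18 to 9.34 TPM in Pkd1KO+ciliaKO males (median 7.68), was lower by -0.70 (SE 0.0833, adjusted p = 3.81e-05 by edgeR), also with no overlap. *Nhlrc4* (-1.16, SE 0.161, adjusted p = 0.000203 by edgeR) and *Ntn4* (-0.85, SE 0.121, adjusted p = 0.000255 by edgeR) followed. *Nacad*, from 1.49 to 4.99 TPM in noncystic males (median 2.53), from 0.639 to 1.49 TPM in Pkd1KO males (median 1.0) and from 0.877 to 2.41 TPM in Pkd1KO+ciliaKO males (median 1.24), was lower by -1.03 (SE 0.195, adjusted p = 0.00291 by edgeR). The other 10 called lower were *Cwh43*, *Fmo2*, *Gcgr*, *A930017K11Rik*, *Egf*, *Nuak2*, *Uroc1*, *Sowaha*, *Rap1gap* and *Ppp1r1b*, with log2 fold changes between -0.69 and -0.38. Over 24 other settings, single mice left out included, the call was lost in 16 for *Ppp1r1b*, 12 for *Sowaha*, 11 for *Uroc1* and 9 for *Rap1gap*, and in at most 1 for each of the other 11 called lower.

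The 3 members higher in Pkd1KO+ciliaKO than in noncystic males were *Pla2g5* (0.93, SE 0.205, adjusted p = 0.0081 by edgeR), *Ubxn10* (1.22, SE 0.279, adjusted p = 0.0104 by edgeR) and *Slc38a3* (0.53, SE 0.136, adjusted p = 0.0194 by edgeR). *Ubxn10*, an adaptor of the p97 ATPase known from cilia, ranged from 3.33 to 11.8 TPM in noncystic males (median 5.19), from 3.67 to 5.08 TPM in Pkd1KO males (median 4.07) and from 6.69 to 17.2 TPM in Pkd1KO+ciliaKO males (median 14.8). Noncystic and Pkd1KO males overlapped, and every Pkd1KO+ciliaKO male lay above every Pkd1KO male. *Spns2* (-0.10, adjusted p = 0.698 by edgeR), *Prodh2* (-0.16, adjusted p = 0.602), *Mogat2* (0.03, adjusted p = 0.919) and *Hacd1* (-0.17, adjusted p = 0.265) were not called. Without the 4 male libraries that stood apart, 28 members were lower (6.92% of all genes) and 6 higher (7.09%).

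In females, *Spns2* was the only member called in this comparison, lower by -0.63 (SE 0.138, adjusted p = 0.0342 by edgeR) against 1.87% of all genes called lower. This call was lost in 8 of 20 other settings, each of them leaving out a single mouse. No member was called higher (0.67% of genes). At an unadjusted p under 0.05, edgeR gave 13 members lower and 4 higher, and DESeq2 called 5 lower and 1 higher after adjustment. The next, *Nhlrc4* and *Lad1*, had -0.83 (adjusted p = 0.0654 by edgeR) and -0.72 (adjusted p = 0.0708). Without the libraries labelled noncystic female replicate 5 and Pkd1KO+ciliaKO female replicate 6, 7 members were called: *Nhlrc4* (-1.12), *Lad1* (-0.98), *Spns2* (-0.75), *Slc2a9* (-0.64), *Ntn4* (-0.57) and *A930017K11Rik* (-0.51) lower, against 3.64% of all genes, and *Ubxn10* (0.89) higher, against 2.16%. The 5 of these other than *Spns2* and *Ubxn10* were also called lower in males, and *Ubxn10* higher. The interaction of sex with this difference was called by edgeR for no member (0.019% of genes lower and 0.0126% higher), and 6 members in the lower and 3 in the higher direction had an unadjusted p under 0.05. The smallest adjusted p among members was 0.395, for *Lad1*.

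**Figure D4:**
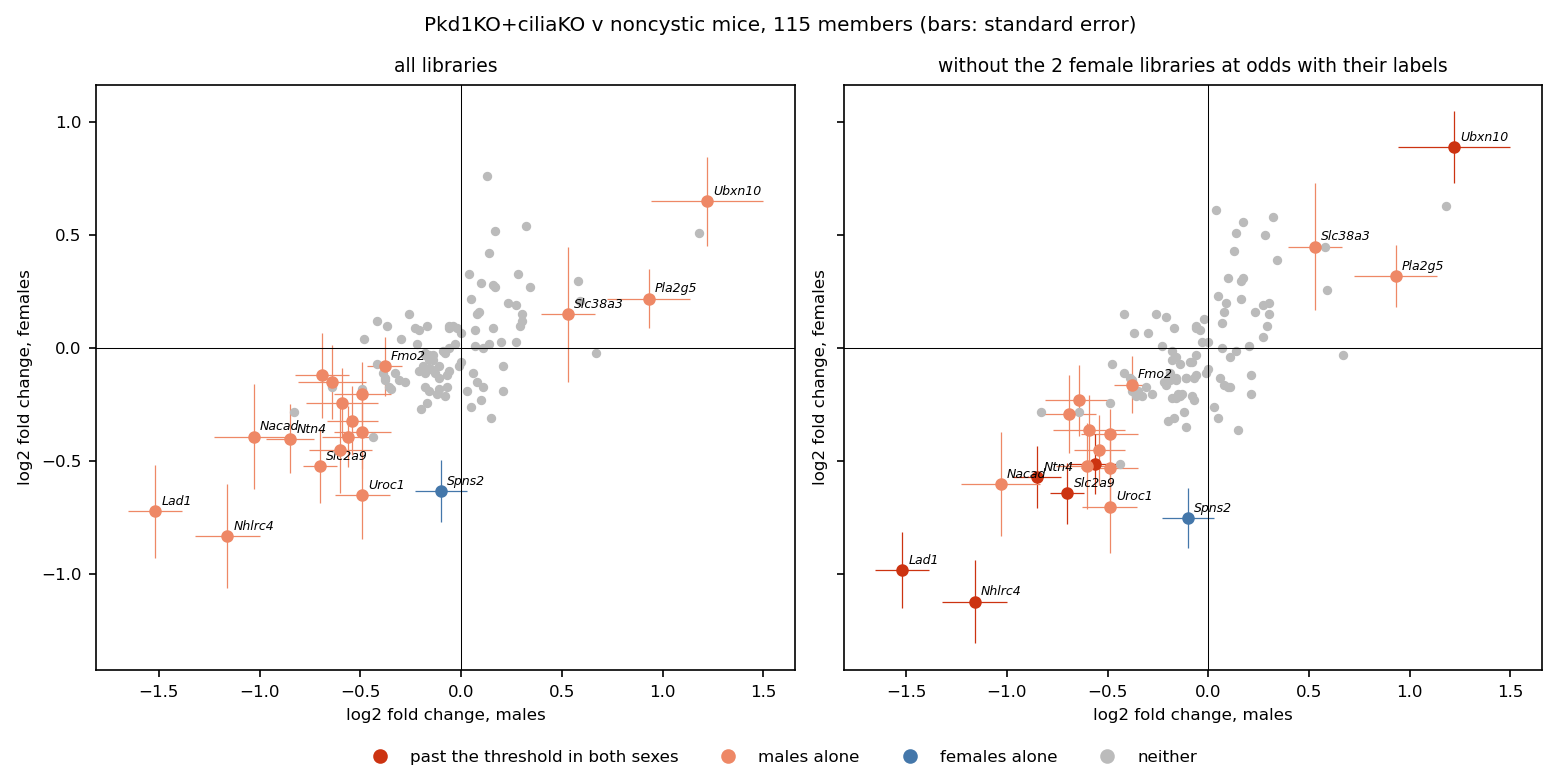
Log2 fold change of Pkd1KO+ciliaKO against noncystic mice in males (horizontal) and females (vertical) for the 115 genes, with all libraries and without the 2 female libraries whose *Kif3a* goes against their labels; bars, drawn for called genes, are standard errors, and colours show in which sex edgeR called the gene. *Lad1* and *Nhlrc4* lie lowest in both sexes and *Ubxn10* highest among the genes called in males.

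Many members differed in level between the sexes before loss of both *Pkd1* copies. In noncystic mice, 36 were lower in males (31.3% of members, against 12.2% of all genes) and 7 higher (6.09% against 15.3%). Leaving out noncystic female replicate 5, whose *Kif3a* goes against its label, gave counts of 36 (10.7% of all genes) and 9 (13.6%). *Gm10639*, a predicted gene next to *Gsta2*, was 6.55 to 16.1 TPM in noncystic males (median 7.94) and 61.4 to 91.3 TPM in noncystic females (median 80.5), a log2 fold change of -2.96 (SE 0.138, adjusted p = 2.63e-10 by edgeR). *Gsta4* (-2.02, SE 0.111, adjusted p = 2.7e-09 by edgeR) and *Gsta2* (-2.04, SE 0.149, adjusted p = 4.91e-08 by edgeR) showed the same direction without overlap. *Gc* (-1.45, SE 0.115, adjusted p = 1.01e-07 by edgeR) and *Spns2* (-0.87, SE 0.0773, adjusted p = 3.7e-07 by edgeR) came next, and the noncystic male and female mice did not overlap for either. *Prodh2* (-1.16), *Dsg2* (-1.14) and *Mgat4a* (-1.21) were also lower in males. *Upp2* (1.89), *Myh14* (1.37), *Gm4131* (1.20), *Spata24* (0.69), *Slc25a10* (0.46), *Pcyt2* (0.42) and *Dhrs11* (0.27) were higher in males.

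The sexes thus met the rule from different levels. *Gm10639* fell in males to 3.16 to 7.21 TPM and in females to 23.0 to 143 TPM, and the female groups overlapped widely. *Ntn4* (0.20, adjusted p = 0.384 by edgeR), *Lad1* (-0.11, adjusted p = 0.686) and *Nhlrc4* (-0.10, adjusted p = 0.733) were not called between noncystic males and females.

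**Figure D5:**
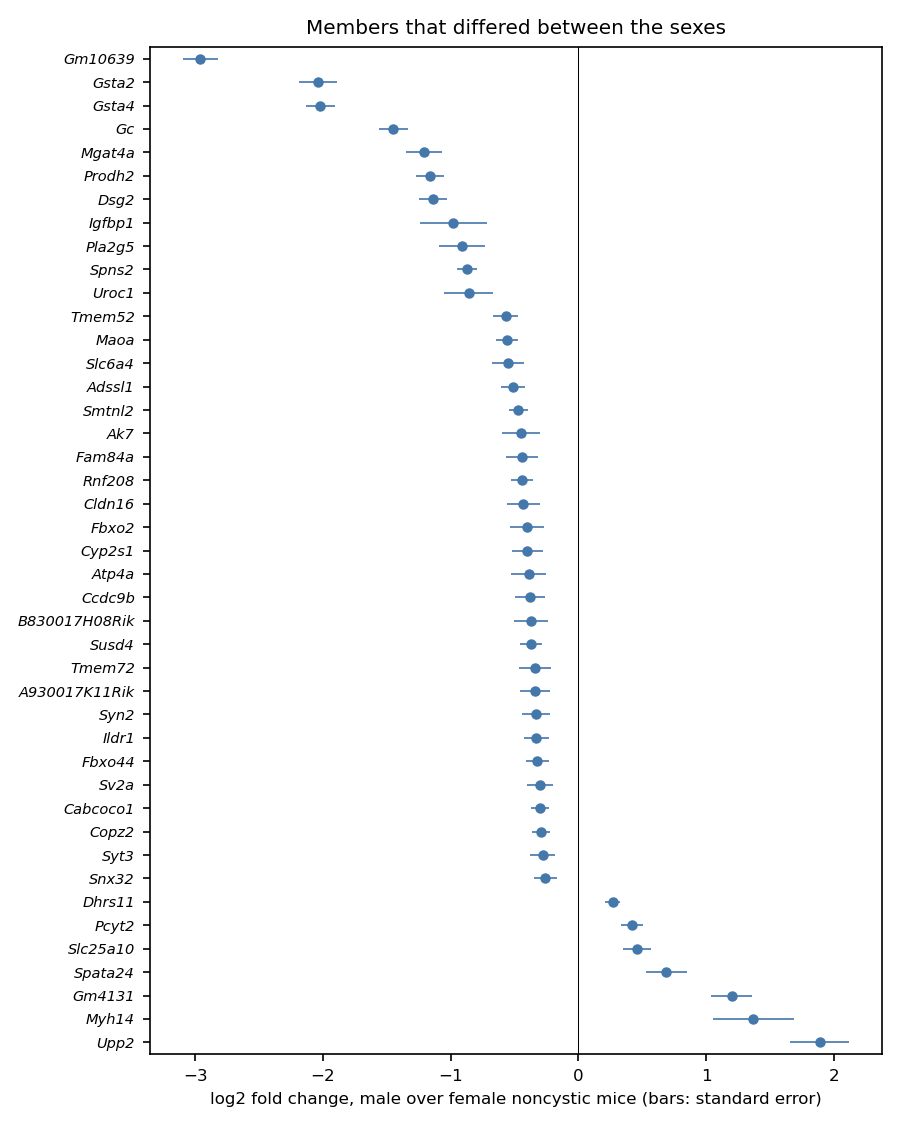
Log2 fold change of noncystic males against noncystic females (edgeR, bars are standard errors) for the 43 members whose level differed at an adjusted p of at most 0.05. The 36 genes left of 0 are lower in males, from *Gm10639* at -2.96, and the 7 right of 0 are higher, up to *Upp2* at 1.89.

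The members lay on 19 chromosomes, with 14 each on chromosomes 11 and 2. Pairs within 100 kb of each other were *Fbxo44* and *Fbxo2* (138 bases apart), *Nhlrc4* and *A930017K11Rik* (1425 bases), *Inafm2* and *Ccdc9b* (5347 bases), *Gm10639* and *Gsta2* (25492 bases), *Slc25a10* and *Gcgr* (31511 bases), *Smtnl2* and *Spns2* (39924 bases), *Ubxn10* and *Pla2g5* (62076 bases), *Gcgr* and *Pcyt2* (71100 bases) and *Gsta4* and *Gm10639* (80573 bases). Noncystic mice carry 1 floxed copy of *Pkd1* and the others 2, and floxed *Kif3a* stands in Pkd1KO+ciliaKO mice alone. Within 5 Mb of *Pkd1* lay *A930017K11Rik*, *Eme2* and *Nhlrc4* (2.04% of the 147 genes past the floor there, against 1.0% of all), and within 5 Mb of *Kif3a* lay *Gpx3* and *Sowaha* (2.35% of 85). Sequence linked to the floxed allele and loss of the gene cannot be told apart for the first 3 in Pkd1KO against noncystic mice, or for *Gpx3* and *Sowaha* in comparisons with Pkd1KO+ciliaKO mice. The 5 Mb window is a setting and does not bound linked sequence. Other members lay farther off, such as *Rasd1* (6361214 bases) and *Spns2* (18849671 bases) from *Kif3a*, and *Tagap* (16614937 bases) from *Pkd1*. Whether linked sequence reached them was not tested. Pkd1KO and Pkd1KO+ciliaKO mice have the same 2 floxed *Pkd1* copies, and between them *Nhlrc4* had log2 ratios of -1.12 in males and -0.95 in females. Pkd1KO and noncystic mice both lack floxed *Kif3a*, and between them *Sowaha* had -1.06 and -0.63. These are ratios that the rule used, so low values there were fixed by the choice. The part of linked sequence was not tested.

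Of the 115, 23 overlapped another protein-coding gene, and since no source used here says whether counting used strand, reads of such pairs may be shared. The partners of *Spns2* (*Mybbp1a*) and *Nhlrc4* (*Pigq*) were not called in any Pkd1KO fit. *Mapk8ip3*, on the same strand as *Eme2*, was called lower in 1 of the 4, Pkd1KO against Pkd1KO+ciliaKO females (-0.39, adjusted p = 0.0244 by edgeR). *Pla2g2c*, on the other strand of *Ubxn10*, moved with it: its log2 fold changes were -2.88 and -2.52 in Pkd1KO against Pkd1KO+ciliaKO males and females, and 2.08 in Pkd1KO+ciliaKO against noncystic males. Reads of *Ubxn10* and *Pla2g2c* cannot be told apart by gene here.

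Some markers of other cells were called higher in Pkd1KO than in noncystic mice, most of them in males alone. The summed level of 8 macrophage markers was 86.6 to 199 TPM in noncystic males, 124 to 1660 in Pkd1KO males and 141 to 215 in Pkd1KO+ciliaKO males. The 1660 TPM belonged to Pkd1KO replicate 4, and the next highest Pkd1KO male was at 357. In females the ranges were 88.8 to 251, 157 to 331 and 104 to 214 TPM. Of these markers 3 of 8 were called higher in Pkd1KO than in noncystic males, as were 2 of 6 podocyte and 3 of 11 tubule injury markers (4.05% of all genes). None on these lists was called higher in Pkd1KO than in noncystic females. In Pkd1KO+ciliaKO against noncystic males, 2 podocyte and 2 injury markers were also called higher (5.63% of all genes), with 1 macrophage marker higher and 1 lower. *Acta2*, of fibroblasts and pericytes, was the 1 of 9 listed genes of those cells called higher in Pkd1KO than in noncystic males (log2 fold change 1.55), and none was in females. The mast cell gene *Ms4a2* was called higher in both sexes (3.31 in males and 2.77 in females), from means of 0.165 to 1.66 TPM in males and 0.593 to 4.06 TPM in females. The 3 measured mast cell markers together summed to 9.13 to 12.4 TPM in noncystic and 14.1 to 18.3 TPM in Pkd1KO females. No listed endothelial gene was called in a Pkd1KO fit, and *Cd8a* alone of T and B cell genes was, against Pkd1KO+ciliaKO males (1.04). The injury list summed to 994 to 2160 TPM in noncystic males (median 1260) and 1130 to 3600 in Pkd1KO males (median 1430). In Pkd1KO+ciliaKO males it summed to 1400 to 3320 TPM (median 1800). Without Pkd1KO male replicate 4, 133 genes met the rule, of which 109 were among the 115. The part of these cells in the members' levels was not tested.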

How the data were processed

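TRAP RNASeq was done on kidney tubules of 45 mice. Per the labels and the study's methods, the authors trimmed reads with fastp 0.20.0, aligned them to GRCm38.p6 with STAR 2.7.9 and counted genes with featureCounts 2.0.0 on GENCODE vM25. The authors deposited raw counts for each sex, and TPM values that the authors computed for protein-coding genes past their filter. All libraries were processed together. Whether counting used strand is not given in the sources used here.

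Group means of the deposited TPM chose the members. The members and lists were chosen with earlier results of these data known. Protein-coding genes reaching 6 counts in 20% or more of a sex's mice were tested with edgeR 4.0.16 (R 4.3.3; TMM, quasi-likelihood, Benjamini-Hochberg) for each pair of genotypes within a sex, and DESeq2 1.42.0 was an alternative. The fit was tested on simulated data. Standard errors given with edgeR values are the absolute log2 fold change divided by the square root of the test's F statistic. Values are given for *Spns2*, *Ntn4* and *Lad1*, the 15 members with the most negative least ratio, the 5 most abundant, members of lists, the 5 with the smallest p in each test and those at the threshold. Other members with values (*Mgat4a*, *Dsg2*, *Upp2* and those called in a test) were picked after their values were seen. Labels do not say more of the mice than genotype, sex and age. The promoter table's *Spns2* entry lies 14877 bases from the gene's start, inside the gene, and is not printed. The printed *Ntn4* entry also lies inside the gene, 368 bases from its start.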

Additional observations from a re-analysis of the deposited data

Results flagged for a closer look

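Within each group of mice, the TPM of the 41 members named with values was searched for a mouse set apart from its group by more than Dixon's 95% critical value. Of 246 groups of values, 38 held such a mouse, over 24 genes. For normally distributed values, chance alone marks about 1 in 20 groups. TPM were used without a log scale, most marked values were the highest of their group, and genes share mice. The number of marked groups is therefore not read against that rate. No cause was tested.

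Noncystic male replicate 3, a library that stood apart on the first principal component, had 11 of the 38. It was the highest noncystic male for *Calb1* (1270 TPM, the next 596), *Slc8a1* (168, the next 73.3), *Ckb* (160, the next 108), *Gsta4* (147, the next 103), *Ppp1r1b* (124, the next 92.7) and *Pdk1* (81.9, the next 50.4). The same held for *Ninl* (57.5, the next 42.3), *Tmem72* (30.6, the next 20.5), *Gc* (29.9, the next 21.2), *Tmem52* (14.6, the next 10.1) and *Nhlrc4* (7.0, the next 4.76).

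Pkd1KO male replicate 4, whose macrophage markers were the highest of the series, was the highest Pkd1KO male for *Lad1* (62.6 TPM, the next 39.8), *Copz2* (46.4, the next 33.2), *Ntn4* (30.1, the next 17.6), *Cldn16* (25.5, the next 14.8) and *Defb42* (1.78, the next 0.875). It lay nearer to the other genotypes than the rest of its group for all 5. Among the other Pkd1KO males, replicate 1 was lowest for *Ckb* (31.5, the next 53.0), replicate 3 lowest for *Slc2a9* (4.12, the next 6.12) and replicate 7 highest for *Gm10639* (7.21, the next 4.73).

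The library labelled Pkd1KO+ciliaKO female replicate 6, whose *Kif3a* level goes against its label, was highest in its group for *Lad1* (227 TPM, the next 142), *Nhlrc4* (5.06, the next 3.35) and *Nacad* (3.29, the next 2.22). The library labelled noncystic female replicate 5 was highest in its group for *Ubxn10* (8.44, the next 5.14). All 4 genes were also among the 18 called between Pkd1KO+ciliaKO and noncystic males.

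In Pkd1KO females, replicate 4 was highest for *Gm10639* (143 TPM, the next 61.3), *Slc8a1* (88.1, the next 52.6) and *Ntn4* (23.7, the next 19.4). Noncystic female replicate 6 was highest for *Cldn16* (44.6, the next 28.4), *Slc44a2* (14.3, the next 11.8) and *Dusp15* (7.46, the next 6.27), replicate 1 for *Gsta2* (1520, the next 1270) and replicate 4 for *Tmem72* (36.0, the next 27.3). Noncystic male replicate 8 was highest for *Ubxn10* (11.8, the next 5.8). In Pkd1KO+ciliaKO mice, male replicate 6 was highest for *Gc* (194, the next 102) and *Defb42* (6.45, the next 3.43), and female replicate 1 for the same genes (220 TPM, the next 88.0, and 6.59 TPM, the next 4.41). Male replicate 3 was highest for *Gpx3* (33500, the next 25100) and female replicate 5 for *Gsta2* (1770, the next 1310).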

How the results depend on the processing

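The 115 members became 35 at a log2 ratio of -0.5 or lower, and leaving out 1 mouse at a time gave 93 to 133. Other settings for the rule gave 82 to 148. Taken from CPM with TMM scaling it gave 98 genes, 87 of them among the 115. The count of members differing between Pkd1KO+ciliaKO and noncystic males (18) was 34 without the 4 libraries that stood apart, 26 by DESeq2 and 14 to 26 without 1 mouse at a time. In females the count of 1 was 6 by DESeq2, 3 with all 6 groups in a fit, 7 without the 2 libraries at odds with their *Kif3a* labels and 0 to 6 without 1 mouse at a time. It was 6 without noncystic replicate 5, 3 without Pkd1KO+ciliaKO replicate 6, 2 without noncystic replicate 1 and 0 without any 1 of noncystic replicates 2, 3, 6 and 7 or Pkd1KO+ciliaKO replicates 2 to 5. Between noncystic males and females the 43 members became 34 to 58 without 1 mouse at a time. Members lower in all 4 Pkd1KO fits (30) ranged from 22 to 35 that way and were 44 by DESeq2. For single genes named in the tests, 1281 settings kept direction and side of the threshold, 160 lost the call and 0 changed sign.

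Replicate numbers did not pair the mice: same-number correlations of deviations ran from -0.335 to 0.36 in males and -0.294 to 0.301 in females. With a replicate block the counts were 12 members between Pkd1KO+ciliaKO and noncystic males, 2 in females, 41 between noncystic males and females and 10 lower in all 4 Pkd1KO fits. Low levels near the 2 TPM floor and 6 to 9 mice a group limit precision.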

Other observations

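Of the 115 members, 61 were kept when any 1 mouse was left out, and 51 were kept under every setting other than the 2 stricter thresholds. Those 51 were *Spns2*, *Defb42*, *Prodh2*, *Mogat2*, *Nhlrc4*, *Spata24*, *Ntn4*, *Lad1*, *Gm33543*, *Dusp15*, *Cwh43*, *Sytl1*, *Hacd1*, *Ppp1r1b*, *Slc38a3*, *Fbxo2*, *Fam84a*, *Tmem86a*, *Pla2g5*, *Chrna4*, *Miox*, *1700067K01Rik*, *Dpep1*, *Sowaha*, *Gsta4*, *Ckb*, *Ninl*, *Xpnpep2*, *Egf*, *Pcyt2*, *P2ry1*, *Gcgr*, *Shroom4*, *Rasgrp1*, *Myo3b*, *A930017K11Rik*, *Fbxo44*, *B830017H08Rik*, *Sv2a*, *Ak7*, *Fam163a*, *Lancl3*, *Gsta2*, *Tmem72*, *Bicd1*, *Dhrs11*, *Syt3*, *Snx32*, *Fa2h*, *Rnf208* and *Inafm2*. *Gpx3*, *Calb1*, *Gc* and *Gm10639* were not among them. With CPM in place of TPM, 11 further genes met the rule, including the glucose transporter *Slc2a4*, the adenylyl cyclase *Adcy1*, the coatomer subunit *Copg2* and the thick ascending limb gene *Tmem207*.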
